A study of Mus musculus with 4 samples.

Results

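The 10 genes described here encode the chaperonins of the mouse cell. They are *Tcp1*, *Cct2*, *Cct3*, *Cct4*, *Cct5*, *Cct6a*, *Cct7* and *Cct8*, the 8 subunits of the cytosolic chaperonin TRiC (also called CCT), and *Hspd1* and *Hspe1*, the mitochondrial chaperonin HSP60 and its lid HSP10. Members were taken by gene symbol from the 39179 genes counted in each library, as a group proposed with earlier results of these data known, so counts over the 10 are descriptions. All 10 were among the 11483 genes left after genes with less than 1 CPM (the count scaled to the library total) in at least 3 libraries were removed, so no member was lost to the filter. B16F1 is a mouse melanoma cell line. Polyadenylated RNA was sequenced from 2 libraries of parental B16F1 control cells and 2 libraries of tumor repopulating cells (TRCs), the cells that grow from single B16F1 cells into spheroids in soft 3D fibrin gels. Neither group carries a transgene, a deletion or a drug treatment in the labels, and both come from the same line, so the comparison is between TRCs and the bulk culture they were grown from, and selection by the gel and growth in it cannot be told apart. It asks how the RNA of the protein folding machines differed between these states.

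A chaperonin is a double ring with a cavity in which a newly made protein folds, driven by ATP. TRiC builds each ring from its different subunits, receives clients from the HSP70 system and from prefoldin, and is needed to fold actin and tubulin as well as many WD40 proteins. HSP60 works in the mitochondrial matrix on proteins that have been imported through the outer and inner membranes and handed over by the mitochondrial HSP70 (*Hspa9*), and HSP10 closes its cavity. The HSP60 and HSP10 genes stand head to head and share the DNA between them, and they are classical genes of the heat shock and mitochondrial stress responses.

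RNA of all 10 chaperonin genes was lower in TRCs than in parental control cells on average, and 4 passed the test. *Hspd1* fell the most, to 42.8% of its control mean (log2 fold change -1.22, standard error 0.22, FDR 3.2e-05). Its partner *Hspe1* fell to 60.4% (-0.73, standard error 0.23, FDR 0.0224). Of TRiC, *Cct3* fell to 56.4% (-0.83, standard error 0.24, FDR 0.0116) and *Cct6a* to 60.3% (-0.73, standard error 0.21, FDR 0.0182), while the other 6 subunits did not pass the FDR threshold of 0.05. In edgeR's quasi-likelihood test *Hspd1* alone was called, with FDR 0.0575 for *Cct3*, 0.0548 for *Cct6a* and 0.0619 for *Hspe1*, and with a replicate block their FDRs were 0.0608, 0.0573 and 0.0735. Calls are from edgeR's exact test with Benjamini-Hochberg adjustment over all 11483 genes. Across those genes 7.05% were called lower and 8.81% higher in TRCs, against 4 lower and 0 higher among the 10 chaperonin genes. Their median on the log2 scale was -0.51 beside 0.0034 for all genes tested, and all 10 fold changes were below 0 where 49.7% of all genes were. The 8 TRiC genes and the 2 mitochondrial genes each work as 1 assembly, so they are not independent of one another. The cells were sequenced in bulk, so fewer cells with a high level and less RNA in every cell cannot be told apart. Nothing in the labels says whether libraries of a group came from separate cultures, so the p-values measure the spread between these libraries.

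*Hspd1* and *Hspe1* lie on chromosome 1 (GRCm38), *Hspd1* (ENSMUSG00000025980) at 55077835 to 55088243 on the minus strand and *Hspe1* (ENSMUSG00000073676) at 55088132 to 55091307 on the plus strand. Their annotated starts are 111 bases apart and their exons overlap by 112 bases. The 250 bases before each RefSeq start of the members were searched in GRCm38.p6 for the core of the heat shock element, GAANNTTC or TTCNNGAA, for the E-box CACGTG and for CCAAT. The first 3 read the same on both strands, and CCAAT was searched on both. A window was found for 9 of the 10 members, and *Cct4* had none. The stretches below are a selection of the matches in front of the 4 called genes. For the heat shock element core and CCAAT, some matches of TRiC genes that did not pass are added. The CCAAT of *Tcp1* is not shown, and for *Cct3*, *Cct6a* and *Cct7* a single CCAAT match each is shown. Each stretch is 30 bases long, and capitals mark the matched letters.
*Hspe1*, heat shock element cores, chr1:55088053-55088082, plus strand: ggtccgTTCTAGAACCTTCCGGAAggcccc
*Hspd1*, E-box, chr1:55088306-55088335, minus strand: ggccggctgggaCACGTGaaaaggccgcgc
*Cct3*, CCAAT, chr3:88297049-88297078, plus strand: ctaatactgtcgATTGGcctatgtttttgt
*Cct6a*, CCAAT, chr5:129787285-129787314, plus strand: cgttggattaagCCAATcagcgggcggcag
*Cct7*, CCAAT, chr6:85451398-85451427, plus strand: aaccgggcgctgATTGGccaaaactcttaa
*Cct2*, heat shock element core, chr10:117063399-117063428, minus strand: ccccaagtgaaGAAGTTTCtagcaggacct
*Cct5*, heat shock element core, chr15:31601862-31601891, minus strand: acagcggccgaTTCCAGAAgctactctgcg

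The *Hspe1* stretch begins its matches 89 bases before the RefSeq start and holds 3 cores that overlap one another. The same DNA lies in an annotated exon of *Hspd1*, in its UTR, and in front of a second RefSeq start of *Hspd1*. A *Hspd1* E-box stands 80 bases before the first of its RefSeq starts, in an annotated exon of *Hspe1*. Other printed stretches also overlap annotated genes. That of *Cct6a* lies in exons of *Cct6a* and *Psph*, and that of *Cct5* in an exon of *Fam173b*. The *Cct2* stretch lies in an intron of *Cct2*, and the *Cct7* stretch in an intron of *Pradc1*. The *Cct3* stretch lies in no annotated gene. Heat shock element cores were found in front of 4 of the 9 genes (*Hspd1*, *Hspe1*, *Cct2* and *Cct5*), and 12.8% of all 32851 windows of the same length hold one. CCAAT was found in front of *Tcp1*, *Cct3*, *Cct6a* and *Cct7*, with 2 matches each for *Cct3* and *Cct6a* and 3 for *Cct7*, and 33.8% of all windows hold it. The E-box was found for *Hspd1* alone, and 6.02% of all windows hold it. Genes with more than one RefSeq start had more than one window searched. Both called TRiC genes hold CCAAT, as do *Tcp1* and *Cct7*, which did not pass.

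*Hspd1* measured 1186 (replicate 1) and 1633 (replicate 3) CPM in control cells, against 607.0 (replicate 1) and 600.5 (replicate 3) CPM in TRCs. The highest TRC library thus lay well under the lowest control library, and the TRC libraries were far closer to each other than the controls were. Group means were 1410 ± 316 (SD, n = 2) CPM in control cells and 604 ± 4.59 (SD, n = 2) CPM in TRCs. *Hspd1* ranked 72nd of all tested genes by mean CPM, the highest rank among the chaperonin genes. Leaving out each library in turn left the log2 fold change between -1.44 and -0.97, and the gene was called each time (FDR between 9.58e-06 and 0.00839, edgeR's exact test).

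*Hspe1* measured 203.1 (replicate 1) and 278.6 (replicate 3) CPM in control cells, against 147.5 (replicate 1) and 143.6 (replicate 3) CPM in TRCs. The groups did not overlap, but the gap to control replicate 1 was much smaller than for *Hspd1*. Its means were 241 ± 53.4 (SD, n = 2) CPM in control cells and 146 ± 2.74 (SD, n = 2) CPM in TRCs. The call of *Hspe1* was lost when any of 3 libraries was left out. Without control replicate 3 the log2 fold change was -0.48 (FDR 0.331), without TRC replicate 1 it was -0.76 (FDR 0.157) and without TRC replicate 3 it was -0.71 (FDR 0.187), whereas without control replicate 1 it was -0.94 (FDR 0.00534, edgeR's exact test throughout).

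Both mitochondrial genes fell, *Hspd1* by the larger factor in these libraries, a difference that was not tested. Per kb of exon, *Hspd1* stood at 449 and 618 CPM per kb in the control libraries and 230 and 227 CPM per kb in TRCs, and *Hspe1* at 138 and 189 against 100.1 and 97.4 CPM per kb. The ratio of *Hspd1* to *Hspe1* RNA was therefore 3.26 and 3.27 in the control libraries and 2.30 and 2.33 in TRCs. The ratio was nearly the same within each group, while the levels themselves differed by 0.46 on the log2 scale between the controls for both genes. The ratio is given as a description, and its difference between the groups was not tested. The size of the ratio depends on the length used (with the principal transcript it was 1.87 and 1.33 on average in control cells and TRCs), and the length cancels in the comparison of the groups.

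TRiC is described here by the ATP affinity of its subunits, an order set with the values already known. In the ring, *Cct2*, *Cct4*, *Cct5* and *Cct7* encode the neighbouring subunits that bind ATP tightly, and *Tcp1*, *Cct3*, *Cct6a* and *Cct8* encode the subunits that bind it weakly. Both called TRiC genes are of the second kind, but so are *Cct8*, which was not called, and *Tcp1*, whose difference was the smallest of the 10. All 8 TRiC genes had a log2 fold change below 0, and differences between subunits were not tested.

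*Cct3* (gamma subunit, ENSMUSG00000001416, chromosome 3, 88297116 to 88321767, plus strand) measured 369.8 (replicate 1) and 538.6 (replicate 3) CPM in control cells, against 257.0 (replicate 1) and 255.4 (replicate 3) CPM in TRCs. TRC libraries were almost equal and both lay below the lower control. Means were 454 ± 119 (SD, n = 2) CPM in control cells and 256 ± 1.15 (SD, n = 2) CPM in TRCs. Without control replicate 3 the log2 fold change shrank to -0.53 (FDR 0.277), and without control replicate 1 it grew to -1.07 (FDR 0.00138, edgeR's exact test).

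*Cct6a* (zeta subunit, ENSMUSG00000029447, chromosome 5, 129786998 to 129846371, plus strand) measured 323.5 (replicate 1) and 409.4 (replicate 3) CPM in control cells, against 216.8 (replicate 1) and 225.1 (replicate 3) CPM in TRCs. Both TRC libraries again lay below both controls, with means of 366 ± 60.7 (SD, n = 2) CPM in control cells and 221 ± 5.85 (SD, n = 2) CPM in TRCs. Without control replicate 3 the log2 fold change was -0.55 (FDR 0.245) and without control replicate 1 it was -0.89 (FDR 0.00971, edgeR's exact test). Leaving out either TRC library kept the size of the *Cct3* and *Cct6a* changes, between -0.84 and -0.72, and took the FDR to between 0.12 and 0.177. The GRCm38 annotation used here marks *Cct6a* as a processed transcript with a sequence error in the genome, so its exon length is less certain than that of the other subunits.

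*Cct8* (theta subunit) measured 633.4 (replicate 1) and 836.0 (replicate 3) CPM in control cells, against 497.0 (replicate 1) and 517.7 (replicate 3) CPM in TRCs. The libraries did not overlap, and the log2 fold change of -0.53 (standard error 0.22) had an FDR of 0.114 by edgeR's exact test. *Tcp1* (alpha subunit, the gene that gave TRiC its name) measured 537.5 (replicate 1) and 716.9 (replicate 3) CPM in control cells, against 425.3 (replicate 1) and 625.8 (replicate 3) CPM in TRCs. It was the only member whose groups overlapped, with TRC replicate 3 above control replicate 1, and its log2 fold change of -0.25 (standard error 0.26) had an FDR of 0.574. Without TRC replicate 1 this value was -0.018, and without TRC replicate 3 it was -0.57.

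Among the subunits that bind ATP tightly, *Cct4* (delta subunit) measured 374.7 (replicate 1) and 437.6 (replicate 3) CPM in control cells, against 262.2 (replicate 1) and 317.3 (replicate 3) CPM in TRCs (log2 fold change -0.49, standard error 0.21, FDR 0.152). *Cct7* (eta subunit) measured 772.4 and 942.1 CPM in control cells and 611.5 and 684.9 CPM in TRCs (-0.40, standard error 0.21, FDR 0.253). *Cct2* (beta subunit) measured 604.3 and 661.3 CPM in control cells and 459.6 and 504.4 CPM in TRCs (-0.39, standard error 0.19, FDR 0.252). In these 3 genes both TRC libraries lay below both controls, yet the differences did not pass the threshold. *Cct5* (epsilon subunit) measured 457.0 and 585.9 CPM in control cells and 382.6 and 422.4 CPM in TRCs (-0.37, standard error 0.21, FDR 0.306), also without overlap. *Cct4*, *Cct8* and the 4 called genes had an unadjusted p under 0.05, as did 3220 of all 11483 genes.

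**Figure D1:**
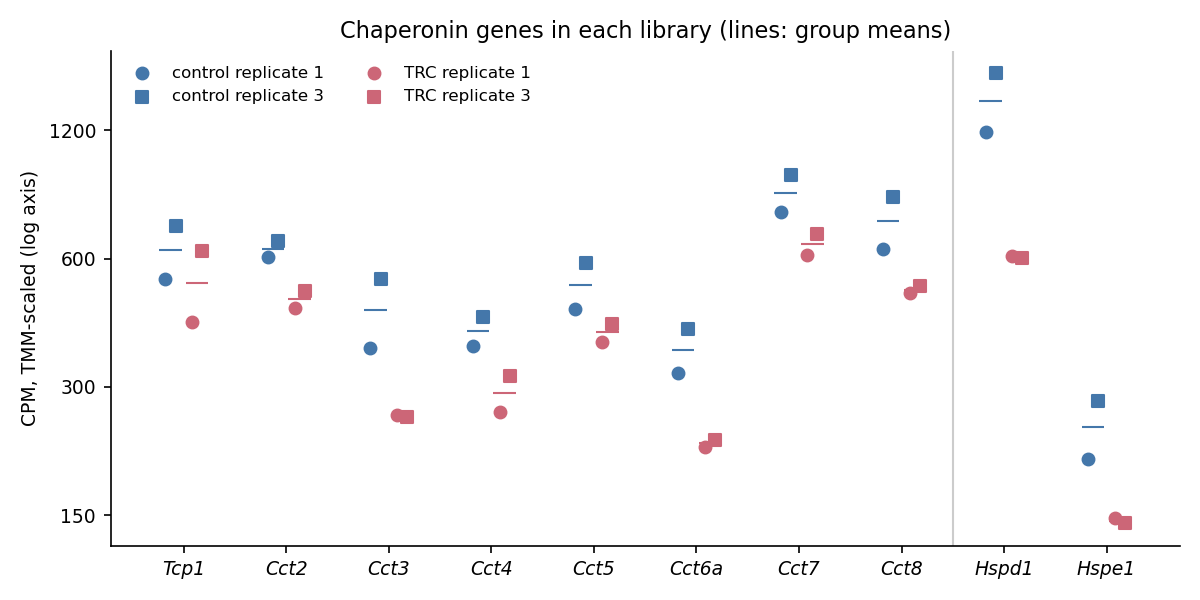
CPM scaled by TMM factors (log axis) of the 8 TRiC genes and, right of the vertical line, *Hspd1* and *Hspe1*, with 1 point for each control and TRC library and short lines at the group means. Both TRC points lie below both control points in 9 of the 10 genes, all but *Tcp1*, and control replicate 3 is the higher control in each gene.

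Both TRC libraries lay below both control libraries in 9 of 10 chaperonin genes, compared with 30.4% of all genes tested. Control replicate 3 lay above control replicate 1 in all 10 members, with a median difference of 0.38 (log2), where 50.5% of all genes were higher in control replicate 3 and the median over all genes was 0.0045. TRC replicate 3 lay above TRC replicate 1 in 7 of the 10, by a median of 0.096. The chaperonin genes thus moved together within the control group as well as between the groups. The part of this library difference in the calls was not tested, and the sizes without each control are those given above for the called genes.

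**Figure D2:**
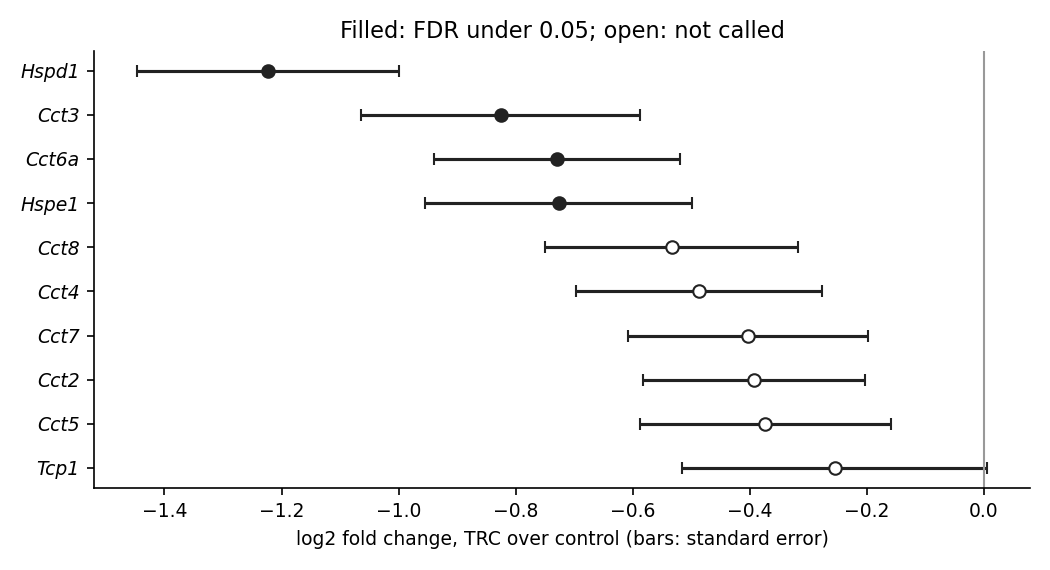
Log2 fold change of each chaperonin gene, TRC over control, with bars of 1 standard error (DESeq2), filled points for an FDR under 0.05 and open points for genes not called. The values run from -0.25 for *Tcp1* to -1.22 for *Hspd1*, and the 4 filled points are the 4 largest decreases.

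**Figure D3:**
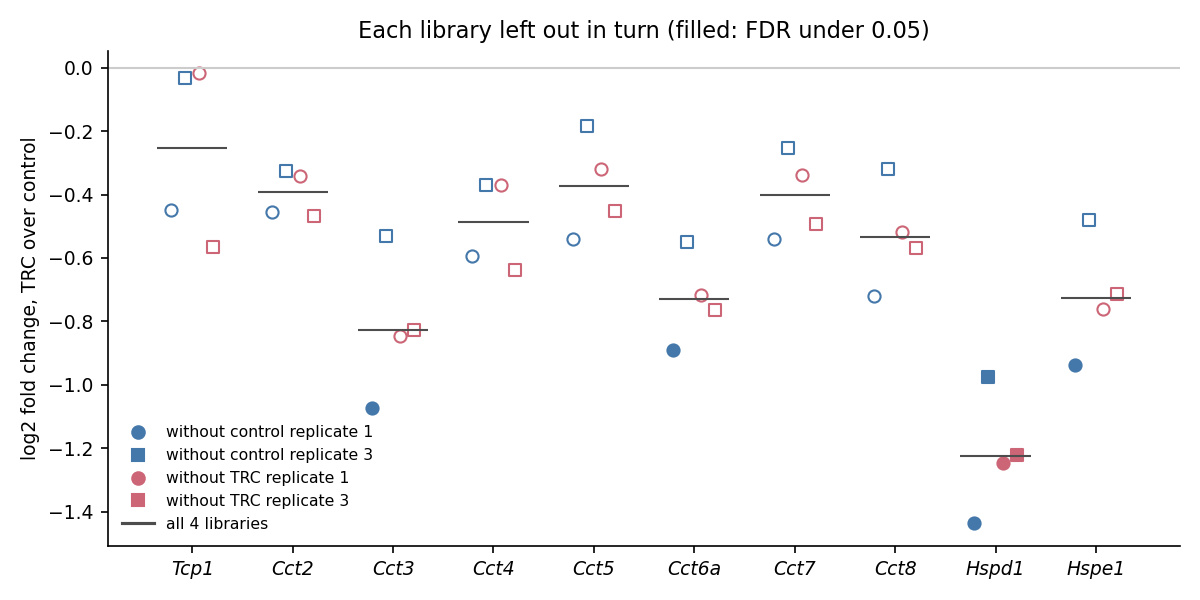
Log2 fold change of each chaperonin gene with each library left out in turn (colored points, filled where FDR is under 0.05) beside the value from all 4 libraries (gray line). *Hspd1* is filled at every point, *Cct3*, *Cct6a* and *Hspe1* only without control replicate 1, and every point lies below 0.

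Compared per kb of exon, the TRiC subunits differed in level. In control cells the order was *Cct2*, *Cct8*, *Cct5*, *Cct7*, *Tcp1*, *Cct6a*, *Cct4* and *Cct3*, from 247 ± 15.8 (SD, n = 2) to 71.3 ± 18.7 (SD, n = 2) CPM per kb. Between them lay *Cct8* (238 ± 46.4), *Cct5* (189 ± 32.9), *Cct7* (126 ± 17.7), *Tcp1* (125 ± 25.2), *Cct6a* (101 ± 16.8) and *Cct4* (96.7 ± 10.6, SD, n = 2 for each). These SDs hold the difference between the control libraries, which the genes share, so neighbours in this order are compared within each library. In both control libraries *Cct8* lay above *Cct5*, *Cct5* above *Cct7*, *Tcp1* above *Cct6a* and *Cct4* above *Cct3*. *Cct2* and *Cct8* changed places between the control libraries, as did *Cct7* and *Tcp1*. *Cct6a* and *Cct4* were nearly equal in control replicate 1 (89.4 and 89.2 CPM per kb). These differences were not tested. In TRCs *Cct2* still stood first, at 189 ± 12.4 (SD, n = 2) CPM per kb, and *Cct3* last, at 40.2 ± 0.18 (SD, n = 2) CPM per kb. The order rests on the exon lengths used: with principal transcripts *Cct7* came first and *Cct6a* last in both groups. The length used there for *Cct6a* was that of its longest transcript (2454 bases).

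The summed TRiC level was 1064 and 1324 CPM per kb in control cells (replicates 1 and 3, in this order here and below) against 816 and 921 CPM per kb in TRCs, without overlap. Shares of this sum add up to the whole, so a lower share of some subunits means a higher share of others. *Cct3* made up 5.46% and 6.38% of it in control cells and 4.94% and 4.35% in TRCs, and *Cct6a* 8.40% and 8.54% in control cells and 7.33% and 6.75% in TRCs, so that the shares of both genes were lower in both TRC libraries. *Cct5* and *Cct7* went the other way in both TRC libraries. *Cct5* held 15.5% and 16.0% in control cells and 16.9% and 16.6% in TRCs. *Cct7* held 10.7% and 10.5% in control cells and 11.05% and 10.97% in TRCs. The shares of *Tcp1*, *Cct2*, *Cct4* and *Cct8* overlapped between the groups. *Tcp1* held 10.04%, 10.8% and 10.4% in control replicates 1 and 3 and TRC replicate 1, and 13.5% in TRC replicate 3. *Hspd1* stood at 3.37 and 3.73 times the mean TRiC subunit in control cells and at 2.25 and 1.97 times in TRCs, on the scale of CPM per kb. The sizes of the shares and of this ratio depend on the exon union used as length. For *Cct3* and *Cct7* it was 6370 and 6778 bases, against 1977 and 2441 for the principal transcript. For *Hspd1* these lengths were 2642 and 2423 bases. Values with other lengths are not given here.

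**Figure D4:**
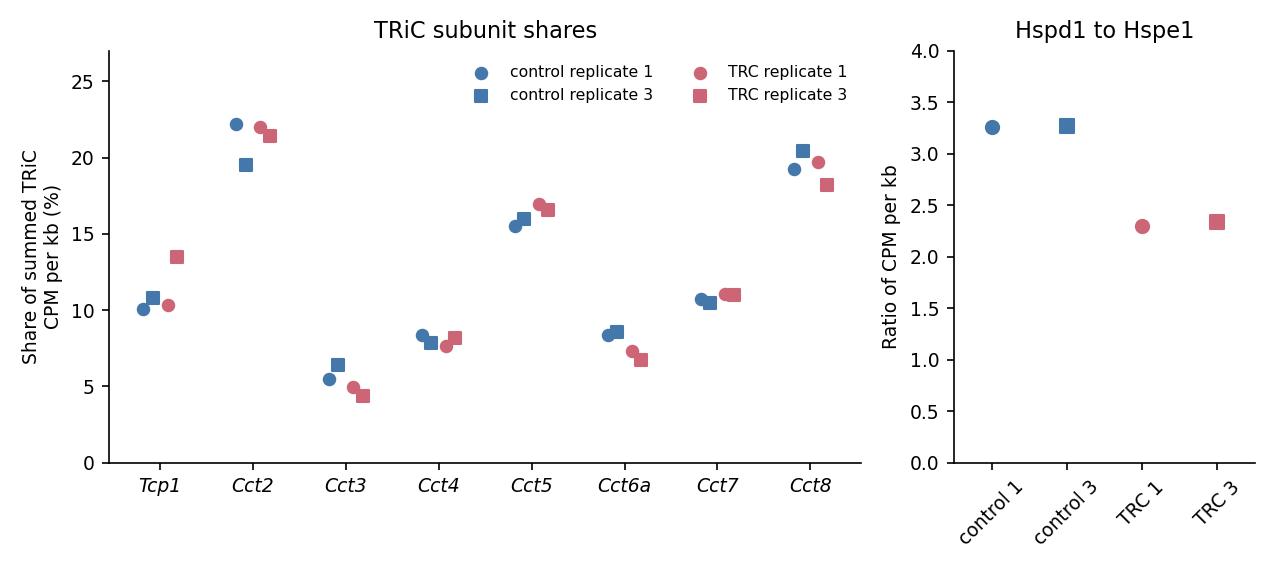
Left, share of each subunit in the summed TRiC CPM per kb of exon (%) in each library. Right, ratio of *Hspd1* to *Hspe1* CPM per kb in each library, at 3.26 and 3.27 in control cells and 2.30 and 2.33 in TRCs.

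Several chaperonin genes share DNA with a neighbour on the other strand. The libraries were stranded, but the strand setting of the counting is not given in the sources used here, so reads from such pairs could have been mixed or dropped. Reads that overlapped more than one gene made up 0.825% to 0.955% of the alignments that were counted or listed as ambiguous, not on a gene or not unique. *Mrpl18*, a mitochondrial ribosomal protein gene whose exons overlap those of *Tcp1* by 141 bases, measured 52.3 and 85.5 CPM in control cells and 44.9 and 58.6 CPM in TRCs. *Psph*, an enzyme of serine synthesis whose exons overlap those of *Cct6a* by 452 bases, measured 112 (replicate 1) and 47.1 (replicate 3) CPM in control cells, against 45.3 (replicate 1) and 52.6 (replicate 3) CPM in TRCs. It was high in control replicate 1 alone, whereas *Cct6a* was higher in control replicate 3, so the pair did not move together between the controls. *Pradc1* beside *Cct7* (20.2 and 23.5 CPM in control cells, 14.6 and 17.5 CPM in TRCs) and *Usp16* beside *Cct8* (71.1 and 62.8 CPM against 54.0 and 49.4 CPM) lay lower in both TRC libraries and were not called (FDR 0.351 and 0.272). *Fam173b*, whose start is 48 bases from that of *Cct5*, measured 9.66 and 6.34 CPM in control cells and 9.61 and 9.36 CPM in TRCs. *B130034C11Rik* beside *Cct8* stayed between 1.85 and 2.56 CPM, and *Tsacc*, 117 bases from *Cct3*, and *Acat3*, whose exons overlap those of *Tcp1* by 571 bases, stayed under 1 CPM and were not tested. Of these neighbours outside the member list, none passed the test, and each was less abundant than the chaperonin gene beside it in every library. The small nucleolar RNA genes *Gm26130*, *Snora20*, *Gm23245* and *Snora15* within *Tcp1* and *Cct6a* were all at or under 0.12 CPM.

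Processed pseudogenes near identical to a member can take or hide its reads, since alignments that were not unique were left uncounted. The closest to *Hspd1* is *Hspd1-ps3*, 99.0% identical over 1722 bases, which had 209 and 259 counts in control cells and 95 and 110 counts in TRCs. These are 0.376% to 0.449% of the *Hspd1* counts in the same library. *Hspd1-ps3* was itself called lower (log2 fold change -1.29, FDR 0.0326 by edgeR's exact test), and at this identity its reads cannot be separated with confidence from those of *Hspd1*. For *Hspe1*, the pseudogenes found in the count tables had at most 4 counts in any library, and *Cct3-ps1*, 92.0% identical to *Cct3* over 839 bases, had at most 1. Some copies matched a member over a short stretch and were counted. *Acat2*, 97.1% identical to *Tcp1* over 175 bases, had 1090 and 2084 counts in control cells and 2422 and 2986 counts in TRCs. These are 4.56% to 13.7% of the *Tcp1* counts in the same library. *Gpr137b-ps*, 91.2% identical to *Cct3* over 114 bases, had 456 to 708 counts, or 2.40% to 6.40% of those of *Cct3*. Further copies were not among the genes counted, so their reads are not known. For *Hspe1* these include *AC117239.2*, a protein-coding gene 99.0% identical over 208 bases. For *Hspd1* they include *Gm47750* (98.8% over 161 bases), *CAAA01091008.1* (97.4% over 153 bases) and *Gm9655* (91.7% over 1229 bases). Alignments that were not unique made up 15.2% and 17.1% of the total in the controls, against 18.3% and 25.2% in TRCs. Their part in the lower *Hspd1* and *Hspe1* counts was not tested.

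Among the partners that bring clients to TRiC, 0 of 11 were called in either direction by edgeR's exact test. Of all genes, 7.05% were called lower and 8.81% higher. The median log2 fold change of the partners was 0.032. An unadjusted p under 0.05 was seen in 2 of them, as in 3220 of all 11483 genes. *Pfdn5*, a prefoldin subunit, measured 96.9 and 88.6 CPM in control cells and 134 and 143 CPM in TRCs (FDR 0.0566), and *Pdcl*, a phosducin-like protein that helps TRiC with G protein beta subunits, 52.6 and 53.9 CPM against 75.4 and 77.5 CPM (FDR 0.0837). Both lay higher in both TRC libraries, without passing the test. The prefoldin genes *Pfdn4* and *Pfdn6* had log2 fold changes of -0.35 and -0.33 and *Vbp1* of 0.15. *Hspa8*, the constitutive HSP70, measured 972 and 2346 CPM in control replicates 1 and 3 and 1463 and 1599 CPM in TRCs, so that both TRC libraries fell between the controls. Of the chaperonin relatives, *Mkks*, *Bbs10* and *Bbs12*, which assemble the BBSome, 0 of 3 were called, beside the same shares of all genes. Their log2 fold changes were -0.22, 0.66 and 0.011, and 0 of 3 had an unadjusted p under 0.05. *Cct6b*, the testis form of the zeta subunit, stayed at or under 0.43 CPM in every library and was not tested.

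TRiC's main clients showed no common direction. Of 13 actin and tubulin genes, 2 were called higher and 0 lower, beside 8.81% and 7.05% of all genes, and the median log2 fold change was 0.050. *Tuba1a* rose from 214 and 284 CPM to 430 and 658 CPM (log2 fold change 1.13, FDR 0.000883) and *Tubb3*, a neuronal beta tubulin, from 99.8 and 71.8 CPM to 139 and 185 CPM (0.92, FDR 0.00489, edgeR's exact test for both). Without TRC replicate 3 these values were 0.78 (FDR 0.0865) and 0.69 (FDR 0.17), and without control replicate 3 that of *Tubb3* was 0.70 (FDR 0.159). The abundant genes showed no such rise: *Actb* measured 1581 and 1995 CPM in control cells and 1353 and 1683 CPM in TRCs, and *Tubb5* 1422 and 1921 CPM against 1374 and 2088 CPM, with overlapping groups. *Tubg1*, gamma tubulin of the centrosome, lay lower (-0.57, FDR 0.0791) and *Tubb2b* higher (0.76, FDR 0.0889), neither past the threshold. Tubulin sequences are similar between paralogs, so reads shared by them may have been left out. Of 7 tubulin folding cofactors, which take tubulin on from TRiC, 0 were called (0 at an unadjusted p under 0.05), beside the same shares of all genes. Their log2 fold changes ran from -0.22 for *Tbce* to 0.46 for the GTPase *Arl2*. Between them lay *Tbcc* (-0.11), *Tbcd* (0.016), *Tbcb* (0.11), *Tbca* (0.21) and *Tbcel* (0.39), and *Tbcd* measured 92.9 and 101 CPM in control cells and 93.0 and 103 CPM in TRCs.

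Among 13 other TRiC clients, 1 was called higher and 1 lower, beside the same 8.81% and 7.05% of all genes, with a median of -0.21. *Vhl*, the substrate receptor of the ligase that degrades HIF, measured 39.8 and 39.2 CPM in control cells and 59.5 and 113 CPM in TRCs (1.13, FDR 0.00183), with a wide gap between the TRC libraries. *Mlst8*, a WD40 subunit of mTOR complexes, measured 24.8 and 39.5 CPM in control cells and 16.8 and 18.8 CPM in TRCs (-0.85, FDR 0.0386). The mitotic activator *Cdc20* (-0.66, FDR 0.0629) and the kinase *Plk1* (-0.39, FDR 0.302) lay lower in both TRC libraries, and the G protein beta subunit *Gnb1* lay higher in both (0.21, FDR 0.608), all without passing, and its relative *Gnb2* measured 251 and 285 CPM against 263 and 305 CPM, with overlapping groups. Calls thus went both ways in this list. The *Vhl* call rests on TRC replicate 3, without which the log2 fold change was 0.58 (FDR 0.257), and that of *Mlst8* passed only without control replicate 1 when a library was left out, with -0.47 (FDR 0.502) without control replicate 3.

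On the mitochondrial side, the listed genes of matrix folding mostly had values below 0. Of 8 matrix folding genes, 0 were called (2 had an unadjusted p under 0.05), beside 7.05% of all genes called lower. A log2 fold change below 0 was seen in 7, where 49.7% of all genes had one, and the median was -0.33. *Hspa9* measured 1347 (replicate 1) and 819 (replicate 3) CPM in control cells, against 456 (replicate 1) and 817 (replicate 3) CPM in TRCs (-0.77, FDR 0.0837). Its order among the controls was the reverse of that of *Hspd1*. *Trap1*, the mitochondrial HSP90, measured 162 and 155 CPM in control cells and 108 and 122 CPM in TRCs (-0.46, FDR 0.16). The nucleotide exchange factors *Grpel1* and *Grpel2* had log2 fold changes of -0.34 and -0.37, the J proteins *Dnaja3* and *Dnajc19* of -0.23 and -0.30, and *Ppif* of -0.32. *Hscb*, the J protein of iron-sulfur cluster assembly, was the 1 gene above 0 (0.47, FDR 0.455).

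Of 18 import genes tested, 2 were called lower and 0 higher. A log2 fold change below 0 was seen in 16, where 49.7% of all genes had one, and the median was -0.34. *Timm9*, a small chaperone of the space between the membranes, fell from 32.5 and 29.95 CPM to 14.3 and 14.0 CPM (-1.14, FDR 0.00123), and *Timm50*, a receptor of the inner membrane translocase, from 51.9 and 74.0 CPM to 38.8 and 31.7 CPM (-0.84, FDR 0.0117). *Timm17a* (-0.52, FDR 0.112), *Tomm70a* (-0.46, FDR 0.166) and *Timm8a1* (-0.85, FDR 0.188) lay below both controls without passing. *Tomm20*, the most abundant import gene, measured 310 and 353 CPM in control cells and 304 and 302 CPM in TRCs. *Timm9* stayed called with each library left out (FDR 0.00799 to 0.0463), and *Timm50* only without control replicate 1, with -0.56 (FDR 0.26) without control replicate 3. The 2 of 18, and the 1 of 10 proteases given next, stand beside 7.05% of all genes called lower. Of 10 genes for mitochondrial proteases, only *Htra2*, a protease between the membranes, was called, from 144 and 138 CPM to 90.1 and 61.2 CPM (-0.90, FDR 0.00476), and without TRC replicate 3 its value was -0.65 (FDR 0.197). *Lonp1*, the matrix protease, measured 450 (replicate 1) and 225 (replicate 3) CPM in control cells, against 254 (replicate 1) and 483 (replicate 3) CPM in TRCs, with overlapping groups, as had *Yme1l1*, a protease of the inner membrane, at 214 and 221 CPM against 202 and 251 CPM.

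The cytosolic HSP70 and HSP90 machinery showed 3 of 25 tested genes lower, 0 higher and a median of -0.35, with 22 of 25 values below 0, beside 7.05% of all genes called lower and 49.7% below 0. The called genes were *Dnajc2*, a ribosome-bound J protein (113 and 119 CPM in control cells, 60.6 and 57.0 CPM in TRCs, log2 fold change -0.98, FDR 0.000272), *Ppid*, a cyclophilin of HSP90 complexes (176 and 217 CPM against 109 and 104 CPM, -0.88, FDR 0.00263), and *Dnajc7*, a J protein that links HSP70 and HSP90 (198 and 230 CPM against 131 and 149 CPM, -0.61, FDR 0.049). *Dnajc2* stayed called with each library left out (FDR 0.000866 to 0.0334), whereas *Ppid* and *Dnajc7* did so only without control replicate 1 (FDR 0.00154 and 0.0479). *Ahsa1*, which activates the HSP90 ATPase, missed the threshold at -0.68 (FDR 0.0506), and *Hspa4l* lay higher (0.68, FDR 0.0609). *Hsp90ab1* measured 2960 and 4359 CPM in control cells and 2462 and 3238 CPM in TRCs, and *Hsp90aa1* 1115 and 1632 CPM against 799 and 1067 CPM (FDR 0.388 and 0.142). As with the chaperonin genes, control replicate 3 was the higher control, in 24 of the 25. Of 4 small heat shock protein genes tested, 1 fell: *Hspb1* (HSP27), which was scarce throughout, went from 4.18 and 2.04 CPM to 0.82 and 0.58 CPM (-2.16, FDR 0.00181), with FDR 0.0542 without control replicate 1 and 0.12 without TRC replicate 3. *Cryab*, the abundant one, measured 156 and 198 CPM against 148 and 117 CPM (-0.42, FDR 0.258). The 1 of 4 small heat shock genes called lower also stands beside 7.05% of all genes.

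**Figure D5:**
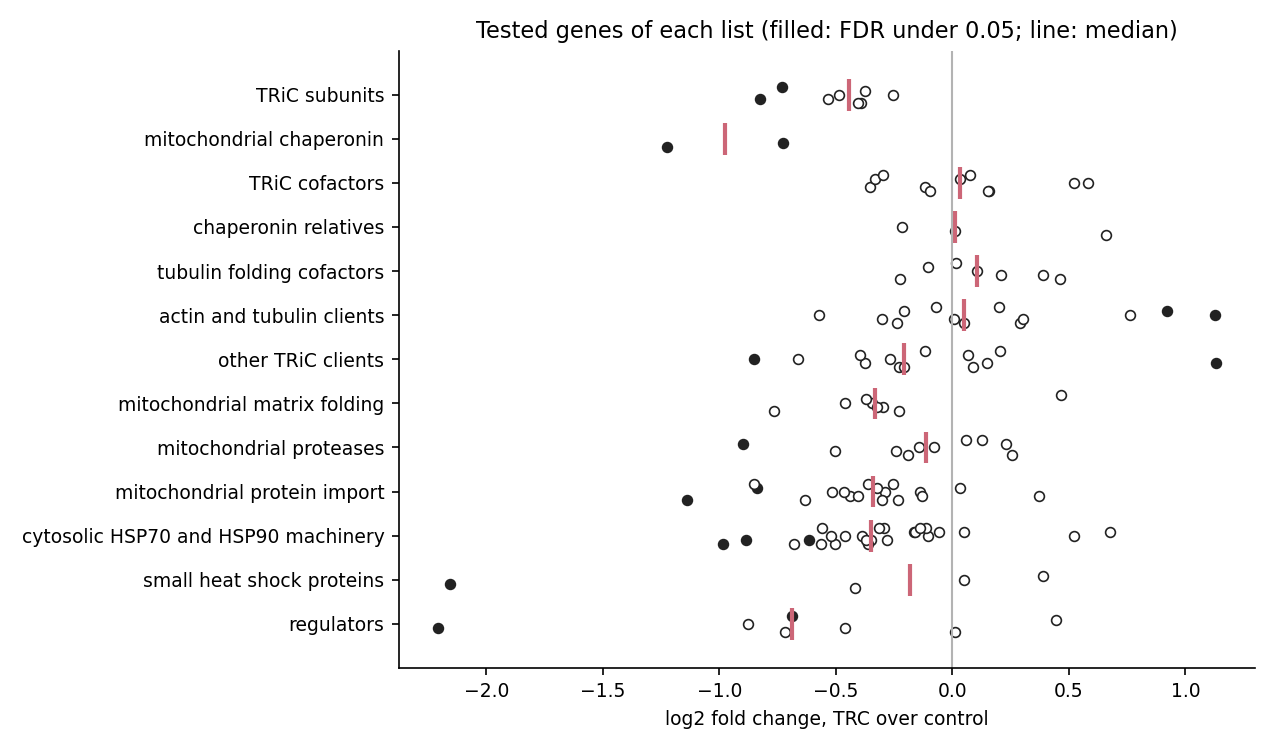
Log2 fold change (TRC over control) of every tested gene in the chaperonin groups and in each list around them, filled where FDR is under 0.05, with a red line at the median of the list. The mitochondrial chaperonin and TRiC medians lie at -0.97 and -0.45, and those of the TRiC cofactors, tubulin folding cofactors and actin and tubulin clients at 0.032, 0.11 and 0.050.

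Regulators that are known to act on these genes were called in 2 of 7 cases, both lower, beside 7.05% of all genes. *Hsf1*, the heat shock transcription factor, fell from 68.0 and 62.8 CPM to 39.1 and 42.2 CPM (-0.69, FDR 0.0212), with close libraries in both groups, and with any 1 library left out its log2 fold change stayed between -0.75 and -0.63, while the FDR was between 0.0542 and 0.218. *Atf5*, a factor of the mitochondrial unfolded protein response, was called (-2.21, FDR 0.00492), but its values were 230 CPM in control replicate 1 and 35.9, 19.0 and 38.6 CPM in control replicate 3 and TRC replicates 1 and 3, so the groups overlapped and the call rests on control replicate 1, without which the log2 fold change was -0.32 (FDR 0.631). *Ddit3* (CHOP) had the same shape, with 139 CPM in control replicate 1 against 18.8, 30.97 and 54.7 CPM, and was not called (FDR 0.356). *Atf4* measured 836 and 465 CPM in control cells and 299 and 491 CPM in TRCs (FDR 0.11), *Myc* 78.8 and 86.9 CPM against 73.6 and 46.6 CPM (FDR 0.227) and *Hsf2* between 28.2 and 32.7 CPM in all libraries. *Hsbp1*, which binds HSF1, lay higher in TRCs (0.44, FDR 0.172). The part of these regulators in the chaperonin levels was not tested.

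The libraries expressed the melanocyte markers of a melanoma line. The 7 markers summed to between 15697 and 18892 CPM in control cells and between 23939 and 26641 CPM in TRCs, and none was at 0. *Dct*, an enzyme of melanin synthesis, rose from 5687 and 4329 CPM to 11140 and 10016 CPM (1.08, FDR 0.000307), and the other 6 (*Mitf*, *Sox10*, *Pmel*, *Tyr*, *Tyrp1* and *Mlana*) were not called. Markers of leukocytes, endothelium, fibroblasts and epithelium, 15 genes, summed to 7.503 and 2.77 CPM in the controls, against 3.99 and 2.91 CPM in TRCs, with 9 to 11 of them at 0 in each library and the leukocyte gene *Ptprc* at 0 in all. Counts on genes ran from 35948295 to 43511554 per library, and each chaperonin gene had between 5981 and 57691 counts, so the spread between libraries rather than counting error sets the precision of the values above.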

How the data were processed

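The authors prepared stranded libraries, sequenced them in single-end format, used Trimmomatic 0.35 for trimming and TopHat2 2.1.0 (Bowtie2 2.2.6, SAMtools 1.3) for alignment to GRCm38 with Ensembl release 75 gene models, and counted them with htseq-count, whose mode and strand setting are not given in the sources used here. What was deposited is the raw count of each Ensembl gene in each library, with no normalization. The 5 totals that name no gene stayed out of library sizes and tests; alignments not on a gene were 2.95% to 4.25% of the total and those not unique 15.2% to 25.2%. Samples were grouped by their labels, which number the replicates 1 and 3.

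Genes with less than 1 CPM in at least 3 libraries were removed, TMM factors (0.957 to 1.04) computed, and common and tagwise dispersions and edgeR's exact test (edgeR 4.0.16, R 4.3.3, prior count 0.125) run on all 11483 genes, with Benjamini-Hochberg FDR under 0.05 as a call. Standard errors are from DESeq2 1.42.0. CPM are counts scaled to the TMM-adjusted library size, and differences between libraries used log2 of CPM plus 0.5. A gene is written as lower in both TRC libraries where both CPM lie under both controls. Levels per kb used the union of a gene's exons in GENCODE release M21 (GRCm38), which matched 37607 of the 39179 identifiers. Copies were sought by alignment of transcripts (at least 90% identity for pseudogenes and 97% for other genes). Promoter windows are RefSeq sequences (GRCm38.p6). The description of protein sequences that had been planned was not made. The scripts were tested on simulated data.

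The members and lists were chosen with earlier results of these data known, so list counts and medians are descriptions. Named are all members, their neighbours and every gene of lists of up to 8 genes that could be given a role. Of longer lists, up to 5 genes with the smallest FDR and the 2 with the highest mean CPM are named. Exceptions, named with the results seen, are the pseudogenes and other copies. Of 27 HSP70 and HSP90 genes 26 were found. Alternatives were other filters, scalings, dispersions and tests, a replicate block, each library left out, and other lengths.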

Additional observations from a re-analysis of the deposited data

How the results depend on the processing

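No direction changed in any of the 10 chaperonin genes under the 15 alternatives. *Hspd1* was called in all 15 (log2 fold change -1.44 to -0.97, FDR 2.9e-06 to 0.029), *Cct3* in 10, *Cct6a* in 9, *Hspe1* in 8, and the other 6 in none. The number of chaperonin genes called lower (4) became 2 with tagwise dispersions shrunk without a trend (chosen after seeing the data), 1 in the quasi-likelihood test and 1 in the quasi-likelihood test with a replicate block, and ranged from 1 to 4 with 1 library left out. Over all genes, 810 lower and 1012 higher calls became 487 and 567 in the quasi-likelihood test and 308 and 477 with the replicate block, and ranged from 269 to 854 lower and 500 to 1078 higher with 1 library left out. Total calls were 1822, 1054 in the quasi-likelihood test and 785 with the block. Over the companion lists, 10 lower and 3 higher calls became 6 lower in the quasi-likelihood test, 5 and 1 with the replicate block, 6 lower with the block and a GC and length correction, 5 higher with dispersions shrunk toward a trend and 6 higher in DESeq2's Wald test, and ranged from 4 to 12 lower and 0 to 4 higher with 1 library left out, where the lone library of a group is assumed to vary like the other group. The cause of these changes was not tested. The deviations of libraries that carry the same number had a correlation of 0.0273 over genes (2 pairs), and the numbers were not taken as pairs in the main test. With 2 pairs this value cannot show whether libraries of the same number were handled together. The *Hspd1* to *Hspe1* ratio of 3.26 in control cells and 2.31 in TRCs was 2.33 and 1.65 with the longest transcript, 5.85 and 4.15 without division by length, and 1.87 and 1.33 with the principal transcript (chosen after seeing the data). The ratio of the highest to the lowest TRiC subunit (3.64 and 4.69) was 2.47 and 3.20, 2.34 and 2.93, and 2.36 and 2.95 in the same order.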

Other observations

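Some regulators and mitochondrial genes, and *Psph* beside *Cct6a*, differed between the controls in the direction opposite to *Hspd1* and *Hspe1*. The 6 genes given here were picked for this pattern, and their lists did not share it throughout. Control replicate 3 lay above control replicate 1 in 2 of 7 regulators, 3 of 8 matrix folding genes and 5 of 10 proteases. The same held for 15 of the 18 import genes tested. *Atf5*, *Ddit3*, *Atf4*, *Hspa9*, *Lonp1* and *Psph* differed by -2.66, -2.85, -0.85, -0.72, -0.996 and -1.24 on the log2 scale (control replicate 3 minus 1), whereas *Hspd1* and *Hspe1* differed by 0.46. In TRCs the first 5 were higher in replicate 3 than in replicate 1, by 1.01, 0.81, 0.72, 0.84 and 0.92, and *Psph* by 0.21. *Hspd1* and *Hspe1* differed between the TRC libraries by -0.015 and -0.038. The melanin enzyme *Tyr* also split the libraries, with 144 and 46.2 CPM in control replicates 1 and 3 and 142 and 277 CPM in TRC replicates 1 and 3. The small heat shock genes *Hspb2* and *Hspb6* measured between 21.8 and 26.96 CPM and between 8.93 and 20.0 CPM over the 4 libraries.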
